A study of Danio rerio with 2 samples.

Results

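The genes of glycolysis, gluconeogenesis and glycogen metabolism were followed in zebrafish liver after arsenate exposure. They were taken as a fixed list of 43 names, which stand for 41 genes because g6pca.1 and g6pca.2 are older names of g6pc1a.1 and g6pc1a.2. Of these 41, 31 were matched by RefSeq accession to a row of the deposited tables, out of 17963 genes in all. The other 10 had no matched row and were not analysed here: the glucose transporter gene slc2a1a, the glucokinase gene gck, pfkla, pfklb, pkmb, tpi1a, eno3, pcxa, gbe1b and pygl. Rows without a matched symbol, 1093 with another accession and 7435 with a GI number alone, could hold some of them, so a step sum covers the matched genes alone. Matched rows held 73.2% of tags with arsenate and 81.3% with water. Of the 31 matched genes, 25 had at least 10 tags over both libraries, and 6 (hk1, pfkma, gpib, aldoab, gapdh and eno1b) had fewer.

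The tags came from 3' SAGE, which reads 1 short tag near the 3' end of an mRNA, so a value is not scaled by transcript length. The arsenate library was made from livers of wild-type fish aged 3 months that were kept for 96 h with sodium arsenate, in tanks of 3 L holding about 15 adults. The water library was made from livers of wild-type fish of the same age without arsenate, and the labels describe the fish as siblings. The sources used here do not give the arsenate dose, or the number and sex of the fish behind each library. There was 1 library per group, so no difference has a replicate check and no test between conditions was possible. Depth was 4420935 tags for arsenate and 2592679 for water. Levels are in RPM (tags per 1000000 tags of the library), and 1 tag equals 0.226 RPM with arsenate and 0.386 RPM with water. Intervals are 95% Clopper-Pearson intervals and cover counting error only.

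Liver takes up glucose, breaks it down by glycolysis, stores it as glycogen, and makes it anew from lactate, amino acids and glycerol by gluconeogenesis. Most enzymes of the path work in either direction. Only a few irreversible steps belong to one direction, namely hexokinase, phosphofructokinase and pyruvate kinase for glycolysis, and pyruvate carboxylase, phosphoenolpyruvate (PEP) carboxykinase, fructose bisphosphatase and glucose-6-phosphatase for gluconeogenesis. Arsenate resembles phosphate and, as textbook biochemistry has it, can take the place of phosphate in the reaction of glyceraldehyde phosphate dehydrogenase.

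The genes of gluconeogenesis alone were lower in the arsenate library as a sum, and the shared steps were mixed. The sum of the genes of glycolysis alone was higher through pkma, with a ratio of 0.968 without that gene. The glycogen sum was close between the libraries, at 637 RPM with arsenate and 578 RPM with water, and each of its 4 matched genes stayed within 2-fold. Most of that sum was pgm1, at 502 RPM and 482 RPM, and without it the ratio was 1.41 (1.22 to 1.65). A gene was counted as higher or lower when its ratio of RPM + 1 was at least 2 or at most 0.5. Of the 25 genes with at least 10 tags, 4 were higher (pkma, pgam1b, eno1a and pcxb), 6 were lower (tpi1b, pgam1a, pck1, pck2, fbp1b and g6pc1a.2) and 15 were neither. Across all 7839 genes with at least 10 tags, 15.6% were higher and 14.4% lower. The 16% higher among the 25 is near this background. The 24% lower is above it but rests on 6 genes, and the difference was not tested. The members were chosen with earlier results of these data known, so their shares are no independent support. An exact binomial test on the tags, a comparison of the libraries rather than of the conditions, called 13.8% of all genes higher and 13.6% lower. Among the 25 genes it called 12% higher and 24% lower. The median log2 ratio of RPM + 1 was 0.005 over the 25 genes and 0.04 over all 7839. Together the 31 genes made up 0.285% of all tags with arsenate and 0.416% with water.

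**Figure D1:**
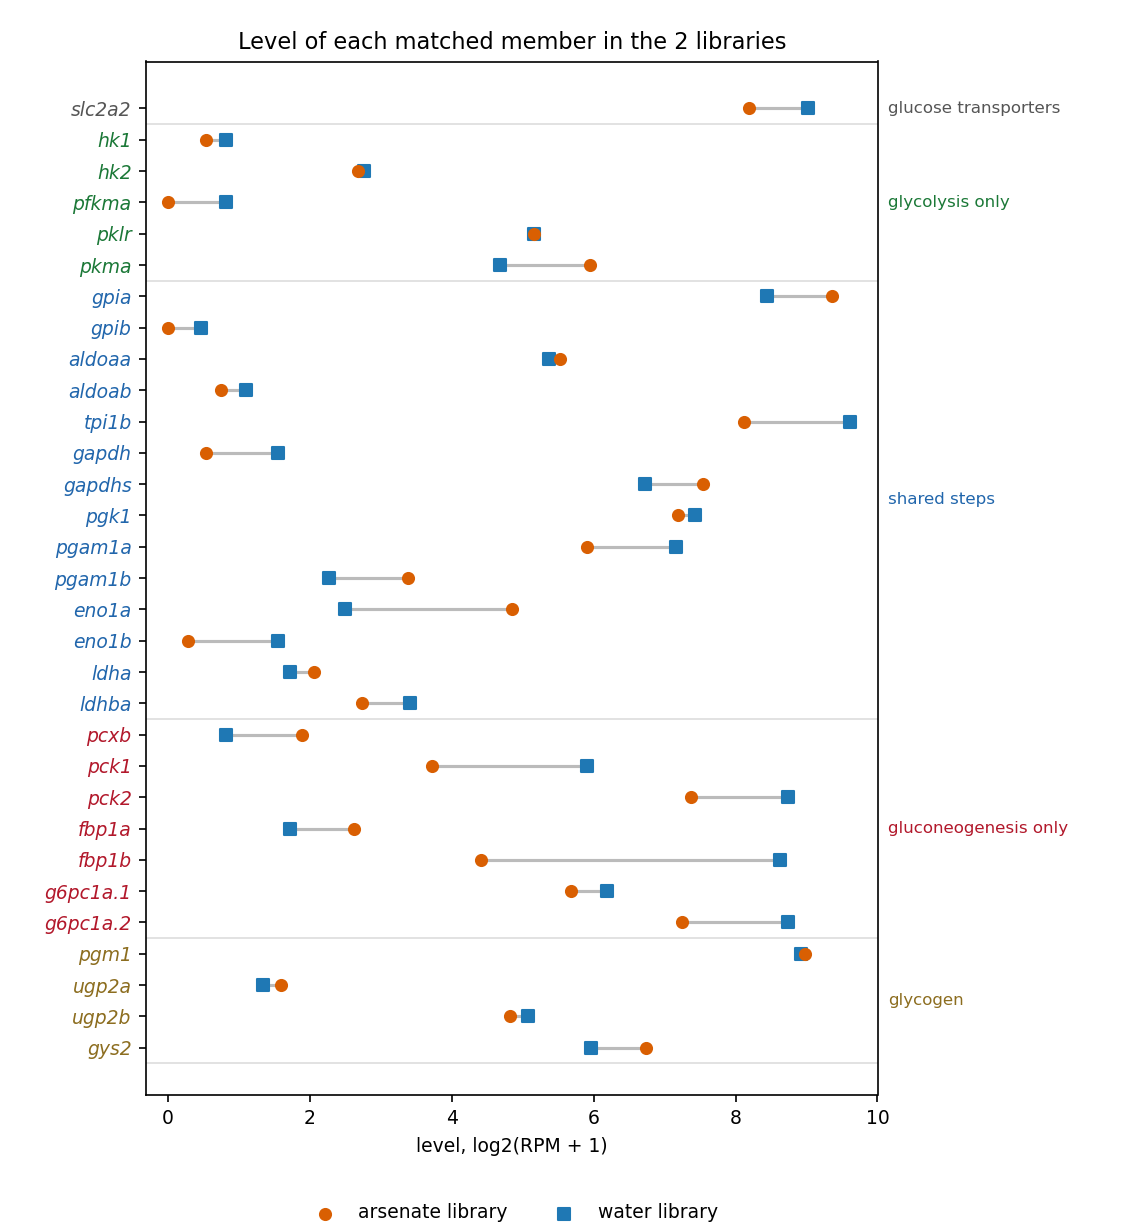
Level of each of the 31 matched genes as log2(RPM + 1) in the arsenate library (circles) and the water library (squares), grouped by role, with 1 library per group. The widest gap is that of fbp1b, at 20.4 RPM with arsenate against 396 RPM with water, and pklr shows the closest pair.

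Liver markers and those of neighbouring tissues also differed between the libraries. Of 10 hepatocyte markers, 3 were lower and none was higher, with a median log2 ratio of -0.83 and a sum of 62997 RPM against 150295 RPM. The most abundant of them, fabp10a (fatty acid binding protein), was at 23450 RPM against 96575 RPM and the fibrinogen gene fgg at 13615 RPM against 7653 RPM. Exocrine pancreas markers summed to 3314 RPM with arsenate and 38816 RPM with water (16 of 17 lower, led by prss59.1 and cela1.6). Enterocyte markers summed to 395 RPM against 1638 RPM (7 of 8 lower, led by rbp2a and fabp1b.1), and testis markers to 2.04 RPM against 316 RPM (5 of 5 lower, led by insl3 and sycp1). Islet markers were at 31.0 RPM against 80.6 RPM (2 of 3 lower). Of these, gcga was at 18.8 RPM against 53.2 RPM, sst1.1 at 0.905 RPM against 18.1 RPM and ghrl at 9.95 RPM against 7.71 RPM. Erythrocyte markers were at 385 RPM against 512 RPM (4 of 7 lower). The 2 with most tags were near level, hbba1 at 195 RPM against 201 RPM and ba1l at 108 RPM against 117 RPM. Neutrophil and macrophage markers were at 897 RPM against 3808 RPM but were mixed (2 of 10 higher and 4 lower). In the last list cpa5, which the pancreas list holds too, had the most tags and lgmn was next, and without cpa5 the list was at 496 RPM against 723 RPM. Biliary markers were at 5476 RPM against 1691 RPM, mostly through krt18a.1 at 4765 RPM against 1043 RPM. The ratio was 1.17 for krt8 and 0.869 for anxa4. Skeletal muscle markers reached 35.1 RPM against 24.3 RPM, a sum that was higher through acta1a alone, at 124 tags against 13. The next in tags, ckmb, had a ratio below 1 with an interval that includes 1. No other marker of this list was higher in RPM with arsenate, though all but acta1a and ckmb had fewer than 10 tags. Adipocyte markers were at 107 RPM against 180 RPM, nearly all fabp4a. Endothelial markers, fli1 and kdrl among them, and ovary markers, zp3b and zar1 among them, stayed at or under 30 tags in either library.

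The genes that act in gluconeogenesis alone summed to 406 RPM after arsenate and 1382 RPM in controls, 3.40-fold lower with arsenate (3.21 to 3.60). Of 8 such genes, 7 were matched and all 7 had at least 10 tags. Of these, 4 were lower, 1 was higher and 2 were neither, where 14.4% of all genes were lower and 15.6% higher. The median log2 ratio was -1.37 against 0.04 over all genes. The hepatocyte, enterocyte and exocrine pancreas sums were also lower, by 2.39-fold, 4.15-fold and 11.7-fold, and their part in these differences was not tested. Of the hepatocyte marker tags, fabp10a held 103673 of 278507 with arsenate and 250387 of 389667 with water. Of the 10 hepatocyte markers, 7 were neither higher nor lower. In bulk tissue, fewer cells of a type and less RNA per cell cannot be told apart.

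Fructose bisphosphatase, which removes a phosphate from fructose 1,6-bisphosphate, showed the widest difference. Its gene fbp1b had 90 tags (20.4 RPM) with arsenate and 1026 tags (396 RPM) with water. That is 19.4-fold lower with arsenate (15.7 to 24.4). The paralog fbp1a stood at 23 tags (5.20 RPM) against 6 tags (2.31 RPM), a ratio of 2.25 whose interval of 0.890 to 6.75 includes 1. It did not pass the 2-fold rule on RPM + 1, at 1.87, but did with library totals that leave out the 10 top genes of either library. Even with both paralogs added, the step was 15.6-fold lower (12.8 to 19.1).

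PEP carboxykinase turns oxaloacetate into PEP and is made as a cytosolic form by pck1 and a mitochondrial form by pck2. The pck1 gene had 54 tags (12.2 RPM) against 153 tags (59.0 RPM), 4.83-fold lower with arsenate (3.52 to 6.72). The more abundant pck2 had 728 tags (165 RPM) against 1104 tags (426 RPM), 2.59-fold lower (2.35 to 2.84). Within the step, pck1 held 6.91% of tags (5.23 to 8.91) with arsenate and 12.2% (10.4 to 14.1) with water, so the cytosolic form was the further below its water level. Pyruvate carboxylase, which supplies the oxaloacetate in mitochondria, was barely sampled. Its gene pcxb had 12 tags against 2, a ratio of 3.52 with an interval of 0.783 to 32.4, and its call was lost with the exact binomial test and with a pseudocount of 5 RPM.

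Glucose-6-phosphatase releases free glucose from glucose 6-phosphate and is the last step before export. The g6pc1a.2 gene had 667 tags (151 RPM) with arsenate and 1105 tags (426 RPM) with water, 2.82-fold lower (2.56 to 3.11). Its relative g6pc1a.1, on the same chromosome, had 222 tags (50.2 RPM) against 186 tags (71.7 RPM), a ratio of 0.700 (0.573 to 0.855) that stayed within 2-fold. A further relative outside the 41 genes, g6pc3, known in mammals as a widely expressed form, went the other way, at 120 tags (27.1 RPM) against 9 tags (3.47 RPM), 7.82-fold higher (3.98 to 17.5). It made up 11.9% of the step's tags (9.96 to 14.1) with arsenate and 0.692% (0.317 to 1.31) with water. All 3 genes together were at 228 RPM against 501 RPM. The transporter gene slc37a4a, whose product carries glucose 6-phosphate to this enzyme in the endoplasmic reticulum, had 80 tags (18.1 RPM) against 354 tags (137 RPM), 7.55-fold lower (5.90 to 9.74).

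**Figure D2:**
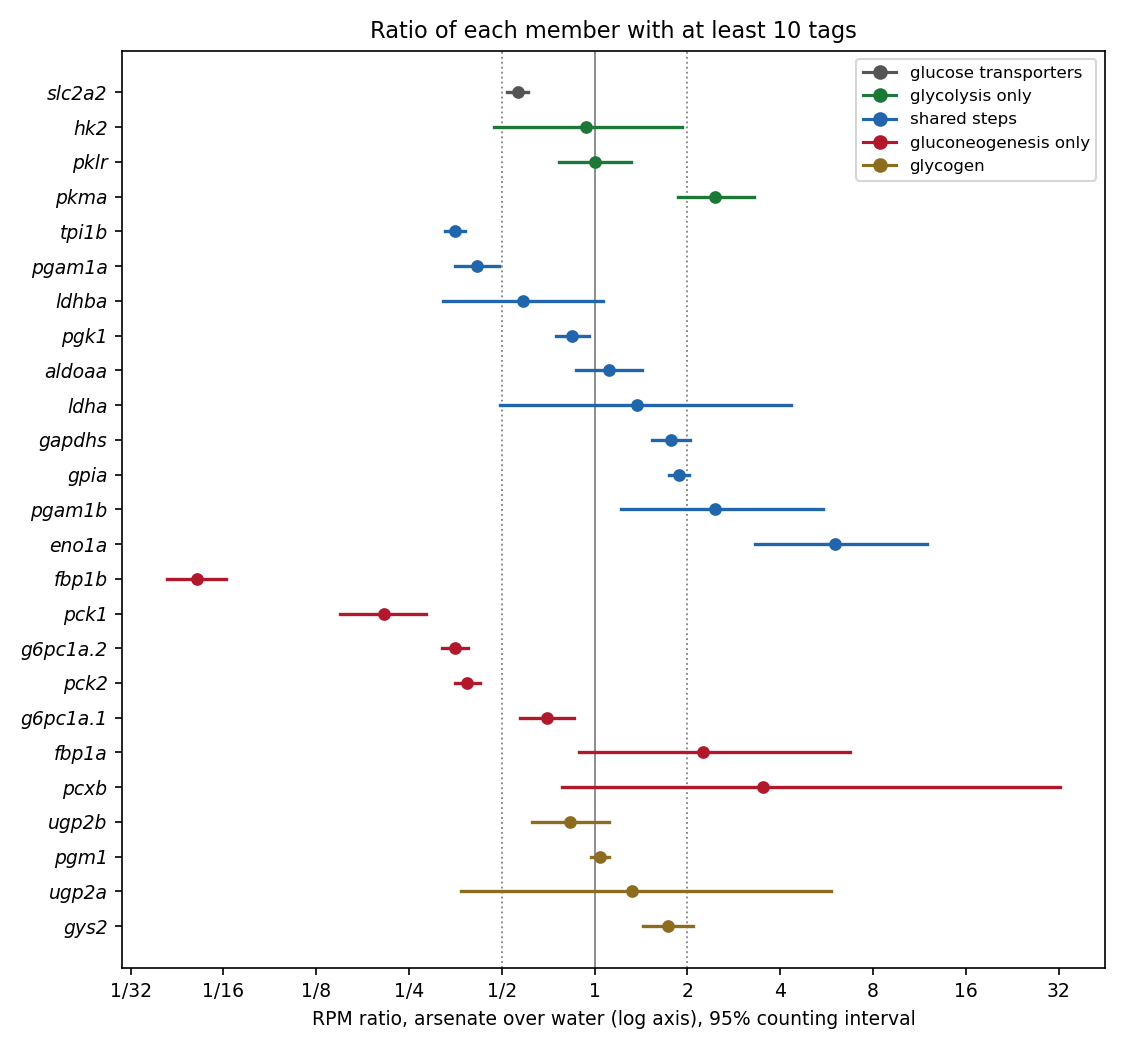
RPM ratio, arsenate over water, of the 25 genes with at least 10 tags on a log axis, coloured by role, with bars for the 95% counting interval and dotted lines at 2-fold either way. The intervals of fbp1b, pck1, pck2, g6pc1a.2, tpi1b and pgam1a lie wholly below 0.5 and that of eno1a wholly above 2, while those of pcxb and fbp1a cross 1.

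Glycolysis alone could be followed mainly through pyruvate kinase, since gck, pfkla and pfklb were not matched. This enzyme makes pyruvate and ATP from PEP, with pklr as the liver and red cell type and pkma as a muscle type. The pklr gene was nearly level, at 154 tags (34.8 RPM) against 90 tags (34.7 RPM), with an interval of the ratio from 0.769 to 1.32 and a sign that depended on the scaling. By contrast pkma had 268 tags (60.6 RPM) against 64 tags (24.7 RPM), 2.46-fold higher with arsenate (1.86 to 3.28). Its share of the step's tags was 63.5% (58.7 to 68.1) with arsenate and 41.6% (33.7 to 49.8) with water, intervals that do not overlap. The pyruvate kinase gene pkmb was not matched, so these shares are of the tags of pklr and pkma alone. The skeletal muscle markers summed to 35.1 RPM against 24.3 RPM. Of the 15 matched, 2 had at least 10 tags, and 9 were listed at 0 tags with arsenate and 3 with water. The acta1a gene held 124 of the 155 muscle marker tags with arsenate and 13 of 63 with water. No other muscle marker was higher in RPM with arsenate. Any part of muscle tissue in the pkma difference was not tested.

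Hexokinase and phosphofructokinase, the other irreversible steps of glycolysis, had few tags. The hexokinase gene hk2 had 24 tags (5.43 RPM) against 15 tags (5.79 RPM), a ratio of 0.938 (0.472 to 1.92) whose sign depended on the scaling, and hk1 had 2 tags in each library. The muscle phosphofructokinase gene pfkma had 0 tags against 2, which is within the limit of 3 tags, 0.679 RPM for arsenate and 1.16 RPM for water. The genes of glycolysis alone summed to 101 RPM against 66.7 RPM, a ratio of 1.52 (1.27 to 1.82). That excess was pkma: without it the ratio was 0.968 (0.759 to 1.24). Of the 3 genes with at least 10 tags, 1 was higher and 2 were neither, where 15.6% of all genes were higher.

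The glucose transporter gene slc2a2 encodes GLUT2, which carries glucose across the hepatocyte membrane in either direction. It had 1291 tags (292 RPM) with arsenate and 1343 tags (518 RPM) with water. The difference of 1.77-fold (1.64 to 1.92) lay inside the 2-fold rule.

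The shared steps, whose enzymes serve both directions, had no common direction. Of 16 genes, 14 were matched and 10 had at least 10 tags, with a median log2 ratio of 0.24. Of the 10, 2 were higher, 2 lower and 6 neither, where 15.6% of all genes were higher and 14.4% lower. Their summed level was 1413 RPM against 1614 RPM, a ratio of 0.875 (0.842 to 0.911) that turned to 1.02 with totals that leave out the 10 top genes of either library. The sum also rested on gpia, without which the ratio was 0.599 (0.570 to 0.628).

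In the upper part of the path, glucose phosphate isomerase, which interconverts the 6-phosphates of glucose and fructose, was represented by gpia. It had 2896 tags (655 RPM) against 902 tags (348 RPM), a ratio of 1.88 (1.75 to 2.03), while gpib had 0 tags against 1. Triosephosphate isomerase, which interconverts the products of aldolase, lay on the other side. Its gene tpi1b had 1220 tags (276 RPM) against 2028 tags (782 RPM), 2.83-fold lower with arsenate (2.64 to 3.05).

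Aldolase splits or joins fructose 1,6-bisphosphate, and the A type gene aldoaa was within 2-fold. It had 199 tags (45.0 RPM) against 105 tags (40.5 RPM), a ratio of 1.11 (0.873 to 1.42), and aldoab had 3 tags in each library. The C type gene aldocb, outside the 41, had 54 tags (12.2 RPM) against 14 tags (5.40 RPM), 2.26-fold higher with arsenate (1.24 to 4.41), a call that was lost with a pseudocount of 5 RPM.

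Glyceraldehyde phosphate dehydrogenase, which adds inorganic phosphate to its substrate, was almost all gapdhs, named after a sperm form of mammals. This gene had 823 tags (186 RPM) against 273 tags (105 RPM), a ratio of 1.77 (1.54 to 2.03). Testis markers summed to 2.04 RPM against 316 RPM, and their bearing on gapdhs was not tested. The gapdh gene had 2 tags against 5. The next enzyme, phosphoglycerate kinase, regains ATP, and its gene pgk1 was within 2-fold, at 639 tags (145 RPM) against 443 tags (171 RPM), a ratio of 0.846 (0.748 to 0.957).

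Phosphoglycerate mutase moves the phosphate group, and its 2 genes differed in opposite directions. The more abundant pgam1a had 260 tags (58.8 RPM) against 367 tags (142 RPM), 2.41-fold lower with arsenate (2.05 to 2.83). The rarer pgam1b had 42 tags (9.50 RPM) against 10 tags (3.86 RPM), 2.46-fold higher (1.22 to 5.51), a call that was lost with a pseudocount of 5 RPM and when the arsenate library was thinned to the depth of the water library. The muscle type gene pgam2, outside the 41, had 74 tags against 138, 3.18-fold lower (2.38 to 4.28).

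Enolase makes PEP, and its gene eno1a had the highest ratio among the 4 of the 41 genes that were higher. It stood at 123 tags (27.8 RPM) with arsenate and 12 tags (4.63 RPM) with water. The ratio was 6.01 (3.32 to 12.0), and eno1b had 1 tag against 5. With eno3 not matched, the step held only 17 tags in the water library.

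Lactate dehydrogenase, which links lactate and pyruvate, was nearly unsampled in the listed genes. The ldha gene had 14 tags against 6, a ratio of 1.37 (0.494 to 4.34) whose sign turned when the arsenate library was thinned, and ldhba had 25 tags in each library, a ratio of 0.586 (0.323 to 1.06). The B type gene ldhbb, outside the 41, held 95.6% of the step's tags with arsenate and 98.8% with water. It had 848 tags (192 RPM) against 2573 tags (992 RPM), 5.17-fold lower (4.79 to 5.60).

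**Figure D3:**
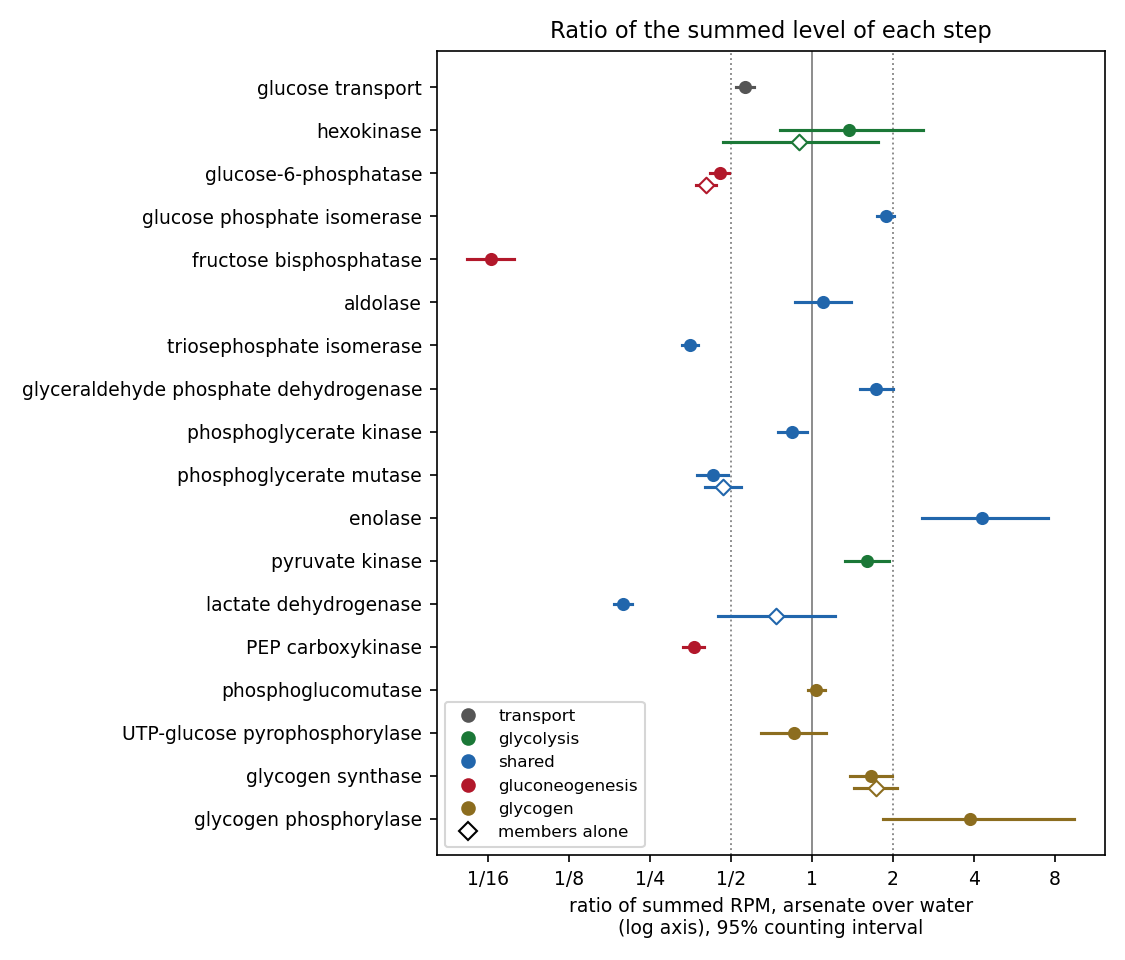
Ratio of summed RPM, arsenate over water, for the steps with over 50 tags on a log axis with 95% counting intervals, where filled circles add all isozyme genes listed and open diamonds the genes of the fixed list alone (both only where they differ; aldolase is aldoaa and aldoab, and glycogen phosphorylase is pygb alone). Pyruvate carboxylase (a ratio of 3.52 from 14 tags), phosphofructokinase and the branching enzyme are not drawn. The other gluconeogenesis steps lie below 0.5 with all isozymes, and lactate dehydrogenase moves from a ratio of 0.738 to 0.200 once ldhbb is added.

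Shares of tags within a step do not depend on the scaling between libraries, and in several steps the gene with most tags in water held a smaller share with arsenate. For fructose bisphosphatase, fbp1b went from 99.4% (98.7 to 99.8) to 79.6% (71.0 to 86.6). For glucose-6-phosphatase, g6pc1a.2 went from 85.0% (82.9 to 86.9) to 66.1% (63.1 to 69.0), and for pyruvate kinase, pklr from 58.4% (50.2 to 66.3) to 36.5% (31.9 to 41.3). The pck2 share, by contrast, went from 87.8% (85.9 to 89.6) to 93.1% (91.1 to 94.8) and that of eno1a from 70.6% (44.0 to 89.7) to 99.2% (95.6 to 99.98). The gys2 share, at 94.1% (89.4 to 97.1) and 98.1% (96.4 to 99.1), had intervals that overlap. Phosphoglycerate mutase differed from these, since pgam1a held 71.3% (67.1 to 75.1) in water and 69.1% (64.2 to 73.8) with arsenate. Its rarer isozyme pgam1b went from 1.94% (0.935 to 3.54) to 11.2% (8.17 to 14.8). Tags of close paralogs could have been split or shared when the authors mapped them, so the values of single isozymes are less certain than the sums of a step.

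**Figure D4:**
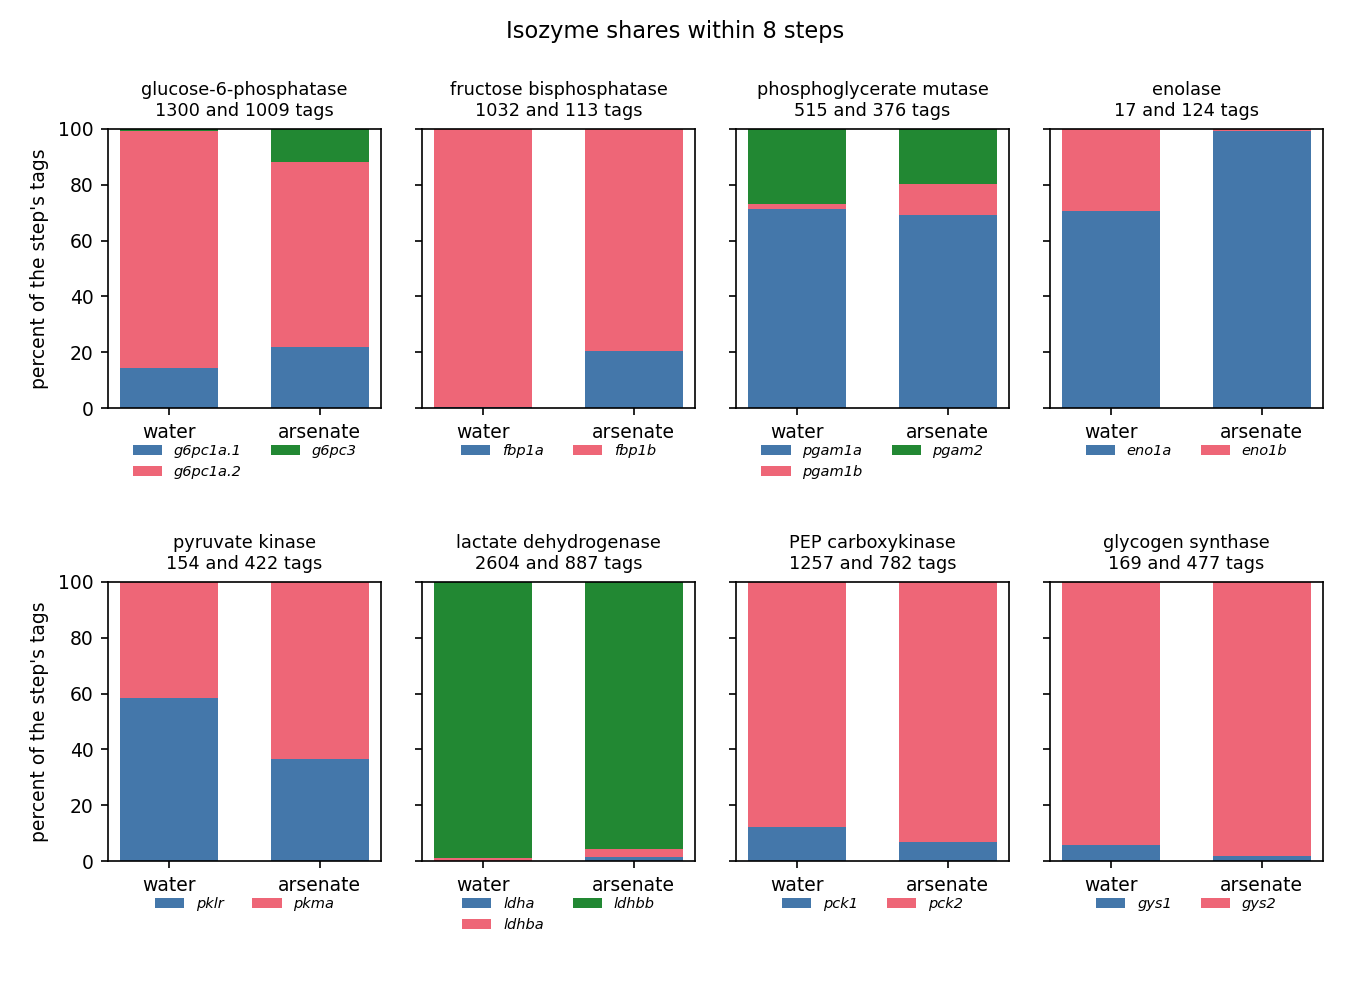
Percent of each step's tags that belong to each isozyme gene in the water and arsenate libraries for 8 steps, with the step's tags in water and then arsenate above each panel. The fbp1a share is 0.581% in water and 20.4% with arsenate, and the pkma share 41.6% and 63.5%.

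The matched glycogen genes of the fixed list stayed within 2-fold. Of 6 genes, 4 were matched and all 4 had at least 10 tags, with a median log2 ratio of 0.16. None was higher or lower, where 15.6% of all genes were higher and 14.4% lower. Phosphoglucomutase joins glycogen to the main path, and its gene pgm1 was level at 2219 tags (502 RPM) against 1250 tags (482 RPM), a ratio of 1.04 (0.971 to 1.12). UDP-glucose, the glucose donor for glycogen, is made by ugp2a and ugp2b. The ugp2b gene had 121 tags (27.4 RPM) against 85 tags (32.8 RPM), a ratio of 0.835 (0.627 to 1.12), and ugp2a had 9 tags against 4. The liver glycogen synthase gene gys2 was the furthest from level, at 468 tags (106 RPM) against 159 tags (61.3 RPM), a ratio of 1.73 (1.44 to 2.08). The breakdown enzyme of liver, pygl, and the branching enzyme gbe1b were among the genes not matched, so storage was seen here without its liver phosphorylase.

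Other genes of the pathway were given by 4 further lists, in which 89 of 138 genes were matched and 66 had at least 10 tags. Of the 66, 11 (16.7%) were higher and 10 (15.2%) lower, near the background of 15.6% and 14.4% over all genes. Among other isozymes and subunits, 3 of 11 were higher and 3 lower, and the most abundant, the glycerol phosphate dehydrogenase gene gpd1b, was at 1840 RPM against 2117 RPM. Among other glycogen genes, 3 of 14 were higher and 2 lower. The gene ppp1r3ca, for a subunit that brings a phosphatase to glycogen, had 21 tags (4.75 RPM) against 93 tags (35.9 RPM), 7.55-fold lower (4.66 to 12.8). Its more abundant paralog ppp1r3cb went the other way, at 207 tags (46.8 RPM) against 61 tags (23.5 RPM). That ratio of 1.99 (1.49 to 2.69) stayed within the 2-fold rule. The glycogenin gene gyg1a, whose product primes glycogen, was at 61.5 RPM against 146 RPM, 2.38-fold lower (2.03 to 2.79). In the same list the brain type phosphorylase gene pygb had 53 tags against 8, 3.89-fold higher (1.84 to 9.46), pgm3, of amino sugar synthesis, was 2.45-fold higher (1.54 to 4.04), and the kinase gene gsk3ab had a ratio of 1.11 (0.925 to 1.34).

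Among regulators, 2 of 20 were higher and 2 lower, beside 15.6% and 14.4% of all genes, with a median log2 ratio of -0.44. The pfkfb genes encode enzymes that make and remove fructose 2,6-bisphosphate, which activates phosphofructokinase and inhibits fructose bisphosphatase. One of them, pfkfb3, had 95 tags (21.5 RPM) against 10 tags (3.86 RPM), 5.57-fold higher (2.90 to 12.0), while pfkfb4b had 59 tags (13.3 RPM) against 81 tags (31.2 RPM), 2.34-fold lower (1.65 to 3.33). The tigarb gene, of a related phosphatase, was 2.29-fold higher (1.40 to 3.90). The transcription factor gene cebpb was level at 378 RPM against 375 RPM and the insulin signalling kinase gene akt2 had a ratio of 1.42 (1.11 to 1.83). Among genes of fructose, galactose and lactate handling, 3 of 21 were higher and 3 lower, beside the same 15.6% and 14.4%. The mitochondrial pyruvate carrier gene mpc2b was at 203 RPM against 587 RPM, 2.89-fold lower (2.66 to 3.14), the carrier gene slc25a12 had 49 tags against 5, and the cytosolic malate dehydrogenase gene mdh1aa was at 619 RPM against 412 RPM.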

How the data were processed

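Per the labels' design text, 3' SAGE tags were sequenced on the SOLiD system, in 1 library per group. The authors deposited 1 value headed TPM for each of 17991 transcripts, read here as RPM because each value is a whole multiple of the value of 1 tag and each column sums to 1000000. Whole tags were recovered for 100% of values within 0.01 tags, and blanks were taken as 0. The mapping tool, reference, filters and genome build were not given in the sources used here. Of 10556 RefSeq accessions, 9463 matched a current symbol through RefSeq annotation of the GRCz12tu assembly, used for names and chromosomes alone, and rows of 1 symbol were summed. Genes at least 2-fold apart in RPM + 1 were counted as higher or lower, a scale that understates low genes. Ratios in the text are of RPM without the added 1, and a limit of 3 tags was used for 0. PCR copies are not independent molecules.

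The result of 1 gene of the other pathway lists is not reported here. The members and lists were chosen with earlier results of these data known. From the other pathway lists, genes called with at least 50 tags (at most 6 a list) and the 2 with most tags were named, and from each of 12 marker lists the 2 with most tags. The genes ppp1r3cb, sst1.1 and anxa4 were also named, outside this rule. Alternatives were TMM (edgeR 4.0.16) and median-of-ratios (DESeq2 1.42.0) scaling in R 4.3.3, other totals, minimums, folds and pseudocounts, thinning, 1 transcript per gene, and a two-sided exact test of binomial shares (adjusted by Benjamini-Hochberg, 0.05, and 2-fold), which called 1084 of 7839 genes higher and 1065 lower. Other steps used scipy 1.17.1, pandas 2.3.3 and numpy 2.4.6 in Python 3.11.15, and plots matplotlib 3.10.9, and the steps were tested on simulated libraries.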

Additional observations from a re-analysis of the deposited data

How the results depend on the processing

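With 1 library per group, no alternative addresses variation between fish, and no replicate could be left out. No paired analysis was possible because each group has 1 sample. Of the 25 genes with at least 10 tags, 12 had the same call under every alternative run and none reversed. Scaling on totals without the 10 top genes of either library shifted the log2 median over all genes up by 0.20, and the other scalings moved it by under 0.1. It moved the share of calls that were higher, over all genes, from 52.1% to 63.3%, and with it gpia, gapdhs and fbp1a passed the 2-fold rule and pfkfb4b no longer did. With a pseudocount of 5 RPM the calls of pgam1b and pcxb were lost, and those of 10 other pathway genes: aldocb, pgm3, pfkfb4b, tigarb, hkdc1, gyg1b, galk1, hnf4a, slc16a7 and mdh1ab.

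The 4 members higher became 7 with that scaling, 8 at 1.5-fold, 1 at 4-fold, 2 with a pseudocount of 5 RPM and 2 with the arsenate library thinned, and the 6 lower became 2 at 4-fold. The share over all genes moved too: 21.4% were higher with that scaling (members 28%), 27.8% at 1.5-fold (32%), 3.87% at 4-fold (4%), 7.40% with the pseudocount (8%) and 15.7% with thinning (8.33%), and 4.48% were lower at 4-fold (8%). By role, the higher count of glycolysis was 0 at 4-fold. For shared steps, higher counts were 4 without the 10 most abundant genes, 4 at 1.5-fold and 1 at 4-fold, with a pseudocount of 5 RPM or with thinning, and lower counts were 4 with a minimum of 1 tag and 0 at 4-fold. For gluconeogenesis, the higher count was 2 without the 10 most abundant genes, at 1.5-fold and with a pseudocount of 0.1 RPM, and 0 with a minimum of 50 tags, at 4-fold, with a pseudocount of 5 RPM, with thinning and with the exact binomial test, and the lower count was 2 at 4-fold. At 1.5-fold, 1 transporter gene was lower and 1 glycogen gene higher. The background moved here as well, with 11.1% of 14068 genes lower with a minimum of 1 tag. The share of all genes higher was 16.1% of 4433 with a minimum of 50 tags. It was 19.2% with a pseudocount of 0.1 RPM and 13.8% with the exact binomial test. Of the other pathway genes, 7 were higher with at least 50 tags and 5 at 4-fold or with a pseudocount of 5 RPM, and 24 were lower at 1.5-fold, 3 at 4-fold and 6 with a pseudocount of 5 RPM. Those lower are 36.4%, 4.55% and 9.09% of the 66, against 24.4%, 4.48% and 7.78% of all genes, and the 7 higher are 16.3% of 43 genes with at least 50 tags (16.1% of all such genes), and the 5 higher 7.58%, against 3.87% at 4-fold and 7.40% with the pseudocount.

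Ratios of summed RPM without the 10 most abundant genes were 0.655 for the transporter, 1.02 for shared steps, 0.342 for gluconeogenesis and 1.28 for glycogen, and with TMM 0.928 for shared steps and 0.312 for gluconeogenesis. The genes summed were varied after the data were seen. Without the member with most tags the ratio was 0.968 for glycolysis, 0.599 for shared steps, 0.253 for gluconeogenesis and 1.41 for glycogen. With pgam2 and ldhbb added it was 0.610 for shared steps, and with g6pc3 added 0.313 for gluconeogenesis. The aldolase gene aldocb was not among the genes added. Depth limits hk1, hk2, pfkma, gpib, aldoab, gapdh, eno1b, ldha, ldhba, pcxb, fbp1a and ugp2a, all at or under 50 tags over both libraries.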

Other observations

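The other pathway lists also held 7 genes past the 2-fold rule with fewer than 50 tags, named after their values were seen. With a pseudocount of 5 RPM, gale alone of the 7 stayed past it. The hexokinase domain gene hkdc1 had 14 tags with arsenate and 0 with water. With the water value set at 3 tags it was 2.74-fold higher, and the counting interval of its ratio began at 1.95. The galactose pathway gene gale, which interconverts UDP-glucose and UDP-galactose, had 27 tags against 1, 15.8-fold higher (2.61 to 648). The galk1 gene, which phosphorylates galactose, had 13 against 2, a ratio of 3.81 (0.863 to 34.8). The second glycogenin gene gyg1b had 28 tags against 3, a ratio of 5.47 (1.69 to 28.1), opposite in direction to gyg1a. The liver transcription factor gene hnf4a had 10 tags against 22, 3.75-fold lower (1.70 to 8.87). The monocarboxylate transporter gene slc16a7 had 6 tags against 16 and the malate dehydrogenase gene mdh1ab 16 against 30.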
